A study of Homo sapiens with 4 samples.

Results

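Dense clusters of GATA3 binding were described in H1 human embryonic stem cells (hESCs) 6 h after addition of BMP4. A region counted as shared when the peak lists of both replicates gave a position there, no more than 100 bp apart, and its centre was the mean of these positions. Regions were selected into a cluster when 3 or more consecutive centres spanned at most 50 kb, and runs that overlapped were joined. By this rule 832 of the 9145 shared regions (9.10%, 95% CI 8.53 to 9.71) fell into 241 clusters, and the other 8313 shared regions did not. H1 is an established pluripotent line, grown here on Matrigel in mTeSR1 medium, and all 4 samples of the series had received BMP4 at 50 ng/ml for 6 h. There were 2 ChIP samples made with an antibody to GATA3 and 2 samples of input chromatin. The peak lists of the ChIP samples held 18456 and 12782 distinct positions on the 24 chromosomes, and input entered through the authors' peak calling. No untreated GATA3 ChIP sample was compared, so the clusters are those seen under BMP4. The lists gave 1 position and a gene name per peak, with no height, width or read count, so the depth is unknown and every value here concerns where peaks lay and not how strong they were.

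GATA3 is a zinc finger transcription factor that binds DNA at the short sequence WGATAR, in which W is A or T and R is A or G. It is known as a regulator of trophoblast, of T lymphocytes and of several epithelia, and in pluripotent cells its gene is switched on by BMP signalling. Genes that control development are often regulated by several enhancers spread over long distances. Binding of a factor near a gene does not by itself show that the gene is regulated by it.

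Sequences from the largest clusters show what GATA3 peaks looked like on the DNA. In each of the 10 clusters with the most regions, except that near EYA1, the member window of 200 bp with the most WGATAR sites was taken from hg38, and the stretch from the first to the last site is printed with a few bases on either side. Capitals mark WGATAR, that is AGATAA or a variant of it that begins with T or ends with G, on either strand, and sequences are on the plus strand.
First ribosomal RNA cluster, chr21:8357140-8357173: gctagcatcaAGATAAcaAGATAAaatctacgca
U2 cluster, chr17:43248325-43248445: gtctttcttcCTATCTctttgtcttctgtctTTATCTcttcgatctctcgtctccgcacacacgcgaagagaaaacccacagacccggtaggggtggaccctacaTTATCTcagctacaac
Second ribosomal RNA cluster, chr21:8174095-8174128: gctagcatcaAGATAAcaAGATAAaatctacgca
NAV2 cluster, chr11:20042199-20042295: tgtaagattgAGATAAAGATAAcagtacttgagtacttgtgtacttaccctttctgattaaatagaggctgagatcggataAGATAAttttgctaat
F3 cluster, chr1:94616553-94616666: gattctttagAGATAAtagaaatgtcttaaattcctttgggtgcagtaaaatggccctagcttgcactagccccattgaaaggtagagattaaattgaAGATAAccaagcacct
PLAGL1 cluster, chr6:143990565-143990699: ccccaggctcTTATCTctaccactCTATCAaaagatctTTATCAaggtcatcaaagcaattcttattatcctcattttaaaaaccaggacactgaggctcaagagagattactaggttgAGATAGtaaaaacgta
APP cluster, chr21:26110812-26110954: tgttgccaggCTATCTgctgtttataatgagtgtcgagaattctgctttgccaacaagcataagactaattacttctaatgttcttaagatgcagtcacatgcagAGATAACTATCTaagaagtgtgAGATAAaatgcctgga
GATA2 cluster, chr3:128495581-128495615: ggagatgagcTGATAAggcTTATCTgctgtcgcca

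The 34 bases of the ribosomal RNA clusters are the same in both, which matters below because these clusters are built of repeated sequence. In the NAV2 window a pair of AGATAA sites stood directly next to each other, and in the APP window AGATAA was followed at once by CTATCT, a site on the other strand. The GATA2 window held a site on each strand with 3 bases between them.

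Most clusters were small. There were 183 clusters of 3 regions (75.9%), 40 of 4, 5 of 5, 8 of 6, 2 of 7, 2 of 10 and 1 of 16. The span from the first to the last centre had a median of 36.35 kb and ran from 1.70 to 110 kb. Joining of runs made 29 spans longer than 50 kb, and 10 were shorter than 5 kb. All spans together covered 8.52 Mb, or 0.276% of the chromosomes. Inside clusters the median gap between neighbouring centres was 10.1 kb, against 191 kb over all shared regions, a difference that the selection itself sets. Of the 591 gaps inside clusters, 31 were under 1 kb and the smallest was 409.5 bp.

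**Figure D1:**
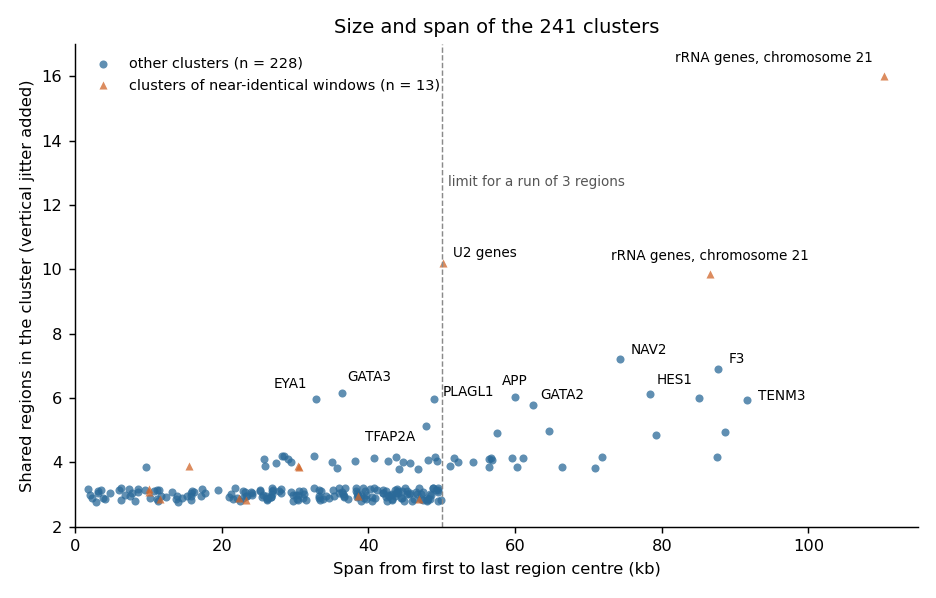
Each point is a cluster, placed by its span in kb (horizontal) and by its number of shared regions (vertical, with small random offsets so that points do not hide each other). Triangles are the 13 clusters of near-identical windows, which include the 3 with 10 or more regions, and the dashed line is the 50 kb limit for a run of 3 regions, which joined runs can exceed.

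The 3 largest clusters lay in repeated genes. The largest, chr21:8357180-8467437, had 16 regions over 110 kb and contained ribosomal RNA genes (RNA5-8SN1 and RNA5-8SN3), the templates of ribosome RNA. The third, chr21:8174116-8260686, had 10 regions over 86.57 kb around RNA5-8SN2. The second, chr17:43233911-43284034, had 10 regions over 50.1 kb in the array of U2 small nuclear RNA genes (RNU2-1), spliceosome components, inside an intron of CCDC200. A window was called near-identical to another when they shared at least 50% of their 16-base words on either strand. All 10 regions of the U2 cluster, all 10 of the smaller ribosomal cluster and 12 of 16 in the larger had such a partner in a cluster.

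By this measure 13 clusters with 69 regions consisted for 50% or more of near-identical windows. Apart from the 3 largest, most were pairs of duplicated loci. ANXA8L1 and ANXA8, annexin genes on chromosome 10, each had 3 regions, and so did CTAGE15 and CTAGE6 on chromosome 7. PCDH11X and PCDH11Y, the protocadherin genes on X and Y, each had 4 regions over 30.5 kb and WGATAR in all 4. Clusters at PPIAL4F, PPIAL4H and NBPF15 on chromosome 1 shared windows among themselves, and their spans held U1 small nuclear RNA variant genes (RNVU1-28, RNVU1-2A, RNVU1-29 and RNVU1-15). The last was at the start of the chromosome 19 microRNA cluster (MIR512-1, with DPRX the nearest protein-coding gene), a microRNA locus known for its activity in placenta, where 2 of 3 windows were near copies. Regions with a near-identical partner numbered 75 and held WGATAR in 66.7% (95% CI 55.4 to 76.3). Multiply mapped reads had been excluded before peak calling, per the study's methods, and the part of read mapping in these clusters was not tested. Every result on the members is therefore also given without these 13 clusters where its call changed. Small RNA genes also lay in spans outside the 13, such as RNVU1-30 near PPIAL4C, RNU2-2P at WDR74, and SNORD3A and SNORD3C near EPN2.

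GATA3 bound around its own gene in a cluster of 6 regions, the seventh by size, chr10:8027077-8063432. In replicate 1 the positions were at -18.3, -7.37, 1.13, 2.82, 3.39 and 18.0 kb from the transcription start site (TSS), counted in the direction of transcription with negative values upstream. In replicate 2 they were at -18.3, -7.40, 1.15, 2.81, 3.44 and 18.1 kb. The 100 bp limit of the rule fixes this closeness of the replicates here and at the other clusters. Of the 6 regions 2 were upstream and 4 in introns, and replicate 1 had an additional unshared position at -9.83 kb. The TSS is the outermost start of the annotated gene. Starts of its single transcripts were not used, so a region called intronic can lie upstream of one of them. Sequences of all 6 regions are printed because this gene encodes the factor that was immunoprecipitated.
GATA3, region at -18.3 kb, chr10:8027073-8027098: ccgagttgagTTATCTcttgggatca
GATA3, region at -7.39 kb, chr10:8037975-8038000: acagatgagcAGATAAggtagtcacc
GATA3, region at 1.14 kb, chr10:8046486-8046545: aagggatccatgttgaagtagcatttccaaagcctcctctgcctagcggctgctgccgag
GATA3, region at 2.81 kb, chr10:8048120-8048145: aatagtccccAGATAAagccctcctt
GATA3, region at 3.42 kb, chr10:8048842-8048867: tacccaatttTTATCTcgctacaatc
GATA3, region at 18.05 kb, chr10:8063460-8063497: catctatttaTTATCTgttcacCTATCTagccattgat

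The region closest to the TSS, at 1.14 kb, was the only region of the 6 without WGATAR in its 200 bp, and its central 60 bases are shown instead. The outermost downstream region held 2 sites, and the others held 1 each. The 2 upstream regions had their site 8.5 and 6 bp from the centre, while those at 2.81 and 3.42 kb had it 58 and 58.75 bp away.

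GATA2, the paralogue of GATA3 that acts in blood stem cells and trophoblast, had 2 clusters. The nearer one, chr3:128435382-128497769, held 6 regions. Replicate 1 placed them at 57.8, 35.9, 7.96, -2.36, -3.58 and -4.57 kb from the GATA2 TSS, and replicate 2 placed them at 57.8, 35.9, 7.98, -2.38, -3.59 and -4.565 kb. The regions upstream of the start were a tight group of 3, and the span also reached DNAJB8, a chaperone gene. The second, chr3:128568789-128617858, had 4 regions, of which 3 lay at -75.6, -76.7 and -88.6 kb and the last was nearest to RPN1, 63.2 kb from the start of that gene. WGATAR was in 5 of 6 and in 3 of 4 windows. No unshared position of either replicate fell into the nearer cluster.

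**Figure D2:**
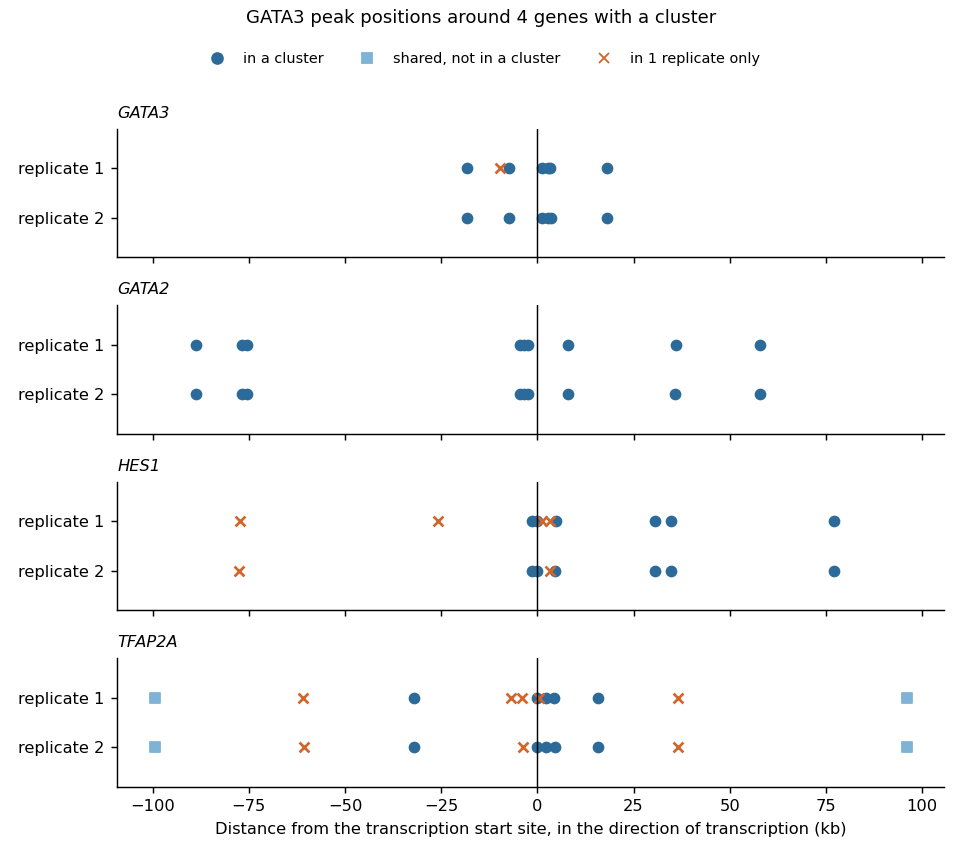
Peak positions of each replicate within 100 kb of the TSS of 4 genes, in kb along the direction of transcription. Circles are clustered shared regions and squares are other shared regions. Crosses are positions with no position of the other replicate within 100 bp. The circles of both replicates coincide at this scale, as the 100 bp limit requires, with 6 at GATA3 and HES1, 9 at GATA2 from both of its clusters and 5 at TFAP2A. Crosses are most frequent around TFAP2A and are absent around GATA2.

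HES1, a transcriptional repressor and target of Notch signalling, had 6 regions over 78.35 kb, chr3:194134846-194213195. In replicate 1 they were at -1.32, -0.0690, 4.73, 30.7, 34.85 and 77.05 kb, and in replicate 2 at -1.28, -0.0910, 4.715, 30.7, 34.9 and 77.05 kb. WGATAR was absent from the windows at the promoter and just upstream of it, and from that at 30.7 kb. The window at 34.86 kb held 5 sites, the nearest 1.5 bp from the centre.

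TFAP2A encodes the transcription factor AP-2 alpha of trophoblast, surface ectoderm and neural crest. Its 5 regions were at 15.9, 4.45, 2.28, -0.118 and -32.0 kb in replicate 1 and at 15.8, 4.49, 2.24, -0.126 and -32.0 kb in replicate 2. The 3 regions closest to the start had no WGATAR, and the outer ones held 1 and 2 sites. A further 3 positions of replicate 1 and 1 of replicate 2 lay unshared inside the span.

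Promoters, taken as the 1 kb on either side of a protein-coding TSS, held 27 clustered regions in 25 clusters. Besides HES1 and TFAP2A these included several other genes of developmental regulators. Many of the promoters belonged to genes on none of the gene lists used below, such as AHNAK, CXCL5, DSE and TUT1. ISL1, a LIM homeodomain gene of amnion, heart progenitors and motor neurons, had a region at -0.0395 kb followed by 2 at 12.7 and 15.8 kb, each with WGATAR. TBX3, a T-box repressor, had regions at 45.1, 4.37, -0.291 and -14.55 kb, and the promoter window alone lacked WGATAR. EN1, a homeobox gene of midbrain and limb ectoderm, had regions at 0.251, 2.47 and 11.4 kb. COL12A1, which encodes a collagen of the matrix, had a promoter region at -0.2365 kb without WGATAR. The sequence was missing in 7 of the 27 promoter windows, those of HES1, TBX3, TFAP2A, COL12A1, CDKN2B, H4C4 and WDR74.

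Other large clusters lay far from promoters. The fourth by size had 7 regions over 74.3 kb inside NAV2, a neuron navigator gene, with 6 in introns and 1 in an exon, and WGATAR in 4. The fifth had 7 regions over 87.6 kb upstream of F3, the tissue factor gene that starts coagulation, at -37.5 to -125 kb, and all 7 held WGATAR. The sixth, on chromosome 8, had 6 regions within 32.86 kb at -80.5 to -113 kb from EYA1, a transcriptional coactivator of ear and kidney development, all with WGATAR. PLAGL1, an imprinted zinc finger gene, held 6 intronic regions over 48.9 kb, with WGATAR in 4. APP, the amyloid precursor gene, held 6 intronic regions at 46.4 to 106 kb from its start, all with WGATAR. The replicates differed by a median of 23 bp in position over all clustered regions, and the median was also 23 bp for the other shared regions.

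The genes near clustered regions were counted next, with a protein-coding TSS within 50 kb of a member as the criterion. There were 214 such genes of 20033 (1.07%), whereas 5452 genes (27.2%) had a shared region of any kind at that distance. Of the 214, 127 had 3 or more regions within 50 kb, a count that the rule of 3 regions in 50 kb largely sets. The most was 8, at TMEM106A beside the U2 cluster of near-identical windows. Developmental transcription factor families (homeobox, T-box, GATA, SOX, FOX, PAX and related genes) had 15 of 343 genes near a clustered region (4.37%, 95% CI 2.67 to 7.09), and 47.8% of the list had any shared region. Among these were ISL1, HES1, TFAP2A, EN1, TBX3, GATA3, GATA2, FOXC1, LMX1B, SOX2, ISL2, TBX2, TBX4 and PAX9. With clusters built from the positions of replicate 1 alone the count was 84, beside 1161 of all 20033 genes. From replicate 2 alone it was 49, beside 565 of all genes. Each of these lists held more regions than the shared set. With runs of 4 or more the count was 5, beside 36 of all genes. The share of 4.37% stood above the 1.07% of all genes, but the list and the members were chosen with these data known and no set test was made.

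Smaller lists gave the following counts. Of the GATA factors and partners, 2 of 15 genes (GATA3 and GATA2) had a clustered region. Of mesendoderm and mesoderm regulators there were 4 of 33, among them TBX3, FOXC1 and TBX2. FOXC1, a forkhead gene of eye and mesoderm, had regions at -34.8, -12.6 and 3.86 kb, all with WGATAR. TBX2 and its neighbour TBX4, genes of limb and heart, shared a cluster of 4 regions that all held WGATAR.

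Trophoblast and amnion markers had 3 of 28 genes (10.7%, 95% CI 3.71 to 27.2), ISL1, TFAP2A and CGA, and 42.9% had any shared region. CGA encodes the alpha chain of chorionic gonadotropin, and its nearest member was at -20.8 kb. The pluripotency network had 1 of 21, SOX2, which keeps stem cells undifferentiated and had regions at -8.34, -6.74 and 4.875 kb. That is 4.76% of the list (95% CI 0.846 to 22.7), beside 1.07% of all genes, and 15 of the 21 (71.4%) had a shared region of any kind, beside 27.2%.

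Lists of signalling pathways had 1 gene or none with a TSS within 50 kb of a clustered region. That criterion leaves out clusters farther from a start. A cluster of 3 intronic regions lay inside BMPR1A, a BMP receptor gene, 90.15 kb from the nearest protein-coding TSS. Another of 3 regions was named for NOG, 86.25 kb from the TSS of that gene. The BMP and TGF-beta pathway had 1 of 41 genes, INHBA, which encodes a subunit of activin A and had regions at 3.74, 9.33, 16.7 and 31.1 kb downstream of its start. The WNT pathway had 1 of 35, AXIN2, a feedback inhibitor of the pathway with 3 of the 4 regions of a cluster nearest to it, at 2.82, -11.25 and -32.0 kb. Notch and HES/HEY genes had 1 of 23 (HES1), AP-1 genes 1 of 12 (ATF3, 31.0 kb from the nearest member) and adhesion and matrix genes 1 of 40 (COL12A1). The FGF and ERK pathway had 0 of 26, which allows a share up to 12.9% (95% Wilson limit), and YAP and TEAD genes had 0 of 18, up to 17.6%. Cytosolic ribosomal protein genes, included as a list with no link to development, had 1 of 86 (1.16%, RPL17), close to the 1.07% of all genes. With 1 gene or none, these shares have wide intervals that include the background, except that of AP-1 genes (Wilson lower limit 1.49%). The AP-1 share rests on ATF3 alone.

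**Figure D3:**
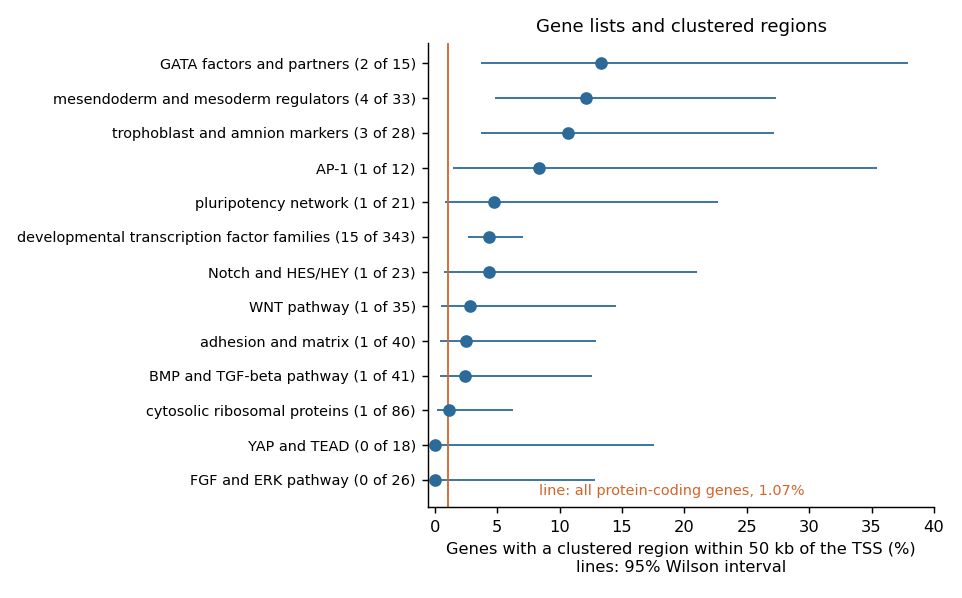
For each of the 13 gene lists the point gives the percentage of genes with a clustered region within 50 kb of the TSS, the horizontal line its 95% Wilson interval and the label the counts. The vertical line is the 1.07% of all protein-coding genes. The intervals of GATA factors, mesendoderm regulators, trophoblast markers, AP-1 genes and developmental transcription factors lie above it. That of AP-1 genes rests on 1 gene, ATF3.

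Many clusters were far from any protein-coding start, and so were many of the other shared regions. Counted by region, 41.5% of clustered and 42.0% of other shared regions had a protein-coding TSS within 50 kb. Within 100 kb the shares were 57.45% and 57.8%. By the naming rule 50 clusters contained a TSS, 73 lay inside a gene body and 118 were named for the nearest TSS. In 123 clusters (51.0%) no protein-coding TSS lay within 50 kb of any region, in 93 none within 100 kb and in 47 (19.5%) none within 250 kb. All regions were intronic in 69 clusters. A long noncoding RNA gene overlapped 106 of the spans (43.98%), with no share for other sequence to set beside it. The following clusters were chosen after their values were seen. One at chr1:209384097-209433451 had 4 regions around MIR205, an epithelial microRNA, with CAMK1G as the nearest protein-coding gene at 150.3 kb. Another of 4 regions at chr5:88660103-88688621 contained MIR9-2, a microRNA of neural progenitors, 215.6 kb from MEF2C. PRDM1, a transcriptional repressor of germ cells and plasma cells, had 4 regions at -40.4, -3.11, -1.54 and 0.3495 kb, all with WGATAR. A histone gene cluster on chromosome 6 had the most starts in a span, 6, among them H4C4 and H2BC7. The tightest cluster covered 1.70 kb, 108 kb from PELI1, and the next tightest covered 2.00 kb at the TRIML2 promoter, which held 2 of its 3 regions.

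Sequence and annotation had no part in the selection, so clustered regions were tested against the other shared regions by two-sided Fisher's exact tests with Benjamini-Hochberg adjustment over 17 features. WGATAR was in 655 of 832 clustered windows (78.7%, 95% CI 75.8 to 81.4) and in 6842 of 8313 others (82.3%, 95% CI 81.5 to 83.1). The odds ratio was 0.796 (95% CI 0.668 to 0.948) with an adjusted p of 0.0686 (unadjusted 0.0121), so the lower share in clusters did not pass the threshold of 0.05. Without the 13 clusters of near-identical windows the share was 80.3% (95% CI 77.4 to 83.0) and the odds ratio 0.879 (adjusted p 0.344 by Fisher's exact test). The share was 80.1% in clusters of 3 regions (440 of 549), 83.1% in clusters of 4 (133 of 160) and 66.7% in larger ones (82 of 123). In larger clusters it was 78.2% (95% CI 68.4 to 85.6) once those of near-identical windows were left out. Regions of a cluster share a locus and are not independent, so p-values over regions are too small.

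The single feature past the threshold was the GC box GGGCGG, the binding sequence of SP and KLF factors, in 7.81% of clustered and 5.04% of other regions (odds ratio 1.60, 95% CI 1.22 to 2.10, adjusted p 0.0192 by Fisher's exact test). That call was lost without the clusters of near-identical windows (odds ratio 1.55, adjusted p 0.0648) and with 1 region per cluster (1.25, adjusted p 0.670), as well as in 100 bp windows (1.41, adjusted p 0.305). The TEAD sequence GGAATG was in 21.75% against 18.6% (odds ratio 1.22, adjusted p 0.110). The remaining sequences also stayed short of the threshold, with odds ratios between 0.846 and 1.41. They were AGATAA, 2 or more WGATAR, the SMAD element GTCTG, the SMAD1/5 element GGCGCC, the AP-1 site (TGACTCA or TGAGTCA), the POU octamer ATGCAAAT, the SOX site (ACAAAGG or ACAATGG), the AP-2 site GCCNNNGGC, the E-box CACCTG and the reversed GATA control. The control, WGATAR read backwards (AATAGA or a variant that begins with G or ends with T, which can overlap WGATAR), was in 33.05% of clustered and 32.5% of other regions. All were searched on both strands, and AGATAA is part of WGATAR.

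**Figure D4:**
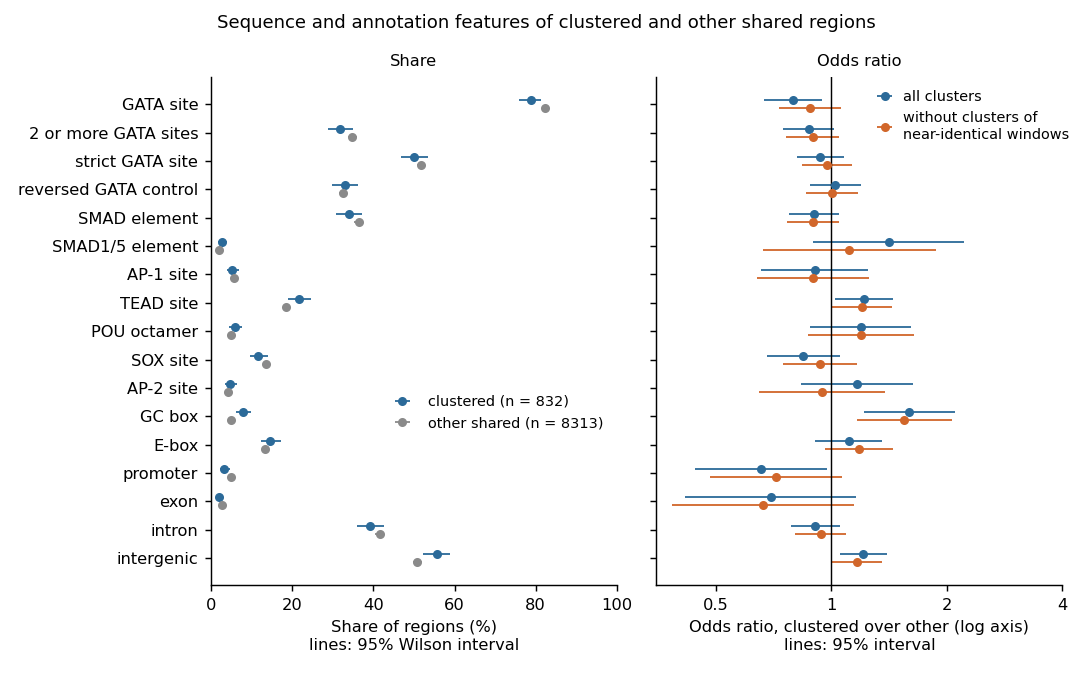
Left, the percentage of clustered (n = 832) and other shared regions (n = 8313) with each sequence or annotation feature, with 95% Wilson intervals. Right, the odds ratio of clustered over other regions on a log axis with its 95% interval, for all clusters and without the 13 clusters of near-identical windows. Most intervals cross 1, and GC boxes lie farthest to the right of it.

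By position, 27 clustered regions were in promoters (3.25% against 4.87% of others, odds ratio 0.655, adjusted p 0.110), 16 in exons (1.92% against 2.74%), 326 in introns (39.2% against 41.5%) and 463 in intergenic sequence (55.65% against 50.9%, odds ratio 1.21, adjusted p 0.0686). None of these differences passed Fisher's exact test after adjustment. The median distance to a protein-coding TSS was 76.05 kb for clustered and 71.7 kb for other regions, and GC content had medians of 44% and 43.5%. In windows with WGATAR the nearest site was a median of 18.5 bp from the centre in clusters and 18 bp elsewhere.

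Within a cluster, regions with and without the GATA sequence were often mixed. All regions held WGATAR in 119 clusters (49.4%), 89 had 1 region without it and 33 had 2 or more. The only cluster with none, 3 regions named for MXI1, was among the latter. The spans themselves were not dense in the sequence. WGATAR occurred 2.40 times per kb of span and 2.44 times per kb in the 50 kb on either side, against 6.08 per kb in the 200 bp windows. Spans held 20428 sites between their outermost centres, and the windows of clustered regions held 1011. Windows of the outermost regions reach past the span, so the 1011 are not all among the 20428. A window held 8 sites at most and 1.215 on average.

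Positions were called unshared when the other replicate had none within 100 bp. Some had a counterpart farther away, such as those at HES1 at 3.265 kb in replicate 1 and 3.396 kb in replicate 2. Unshared positions took no part in the rule, although they come from the same libraries as the clustered regions. Replicate 1 had 116 of them inside cluster spans, or 13.6 per Mb (exact 95% Poisson interval 11.25 to 16.3), against 5.83 (4.91 to 6.885) in the 50 kb on either side and 3.12 (3.05 to 3.18) on the rest of the chromosomes. Replicate 2 had 85 inside spans, 9.98 per Mb (7.97 to 12.3), against 2.83 (2.20 to 3.59) and 1.20 (1.16 to 1.24). The density was highest in the spans in both replicates, and the intervals of spans, flanks and the rest did not overlap. Without the clusters of near-identical windows the spans had 10.96 per Mb (8.79 to 13.5) in replicate 1 and 5.98 (4.41 to 7.92) in replicate 2. These unshared positions were concentrated in some clusters, with none in 165 of 241. Of the 201 positions, 12 lay within 500 bp of a clustered centre. The intervals cover counting error only.

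**Figure D5:**
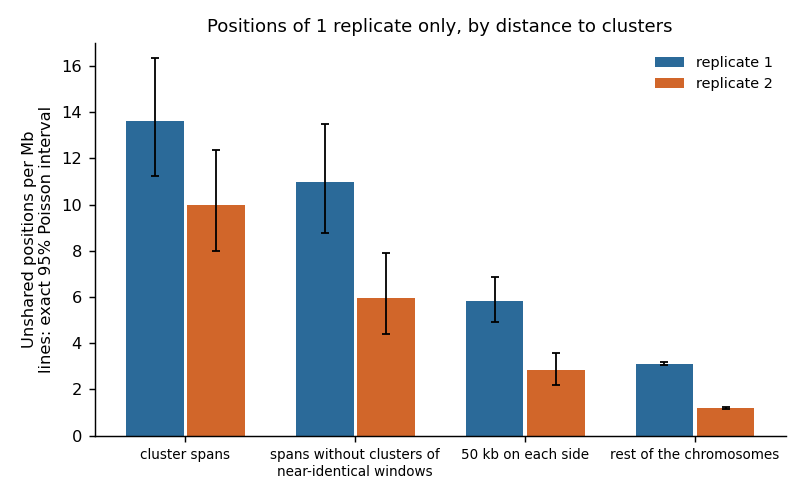
Bars give unshared positions per Mb for replicates 1 and 2 in cluster spans, in spans without the 13 clusters of near-identical windows, in the 50 kb on each side and on the rest of the chromosomes, and thin lines give exact 95% Poisson intervals. In both replicates the values fall from the spans (13.6 and 9.98) to the rest of the chromosomes (3.12 and 1.20).

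The clusters were spread over all 24 chromosomes. Chromosome 21 had the highest share of its shared regions in clusters, 33.8% (45 of 133), of which the ribosomal clusters supplied 26, and chromosome 19 had the lowest, 2.36% (3 of 127). Near the limit of the rule, the widest runs of 3 that were accepted spanned 49.9 kb at EPN2, 49.85 kb at DNAJB8 in the GATA2 cluster and 49.5 kb at HS3ST3B1. The narrowest that were not spanned 50.1 kb at OLR1, 50.4 kb at LDB2 and 50.6 kb at OTX2.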

How the data were processed

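GATA3 ChIP and input chromatin of H1 hESCs treated with BMP4 were sequenced in 2 replicates each. As the methods of the study state, cutadapt trimming came before alignment with bowtie (hg38), Picard then took out duplicates, and reads with several alignments or in blacklisted regions were dropped by the authors. MACS2 peaks were called for each ChIP sample against the input of the same replicate, with a q-value limit of 0.05. The deposited lists held 18545 and 12870 lines for replicates 1 and 2. These differ from the peak numbers that the study reports, and the difference was not resolved. The deposited files give 1 position and a gene name per peak, and no count, score or width, so depth is unknown. Whether bases are counted from 0 or 1 was not stated. Input samples and reads were not analysed here.

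Distinct positions on chromosomes 1 to 22, X and Y were used, with GENCODE release 44 and hg38 sequence in 200 bp windows. Gene starts were taken at 5′ ends of genes. Genes of a cluster were those with a TSS in the span, otherwise a gene that holds the span, otherwise the gene with the nearest TSS. Clustered and other shared regions were compared by two-sided Fisher's exact tests with Benjamini-Hochberg adjustment. Shares have 95% Wilson intervals and densities exact Poisson intervals. The study calls the replicates biological, and labels do not say whether they were separate cultures. The tests measure spread over regions only. Scripts were tested on simulated positions.

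Clusters named are the 10 with the most regions (ties by shorter span), those at the 50 kb limit, those near genes of 13 lists and that at GATA3. Others were chosen after their values were seen, and a gene of the lists is not reported here. The members and lists were chosen with earlier results of these data known. Alternatives changed the matching distance, run length and span, window, promoter width and gene distance, or used 1 replicate or 1 region per cluster. Leaving out clusters of near-identical windows was added after seeing the data. Python 3.11.15, numpy 2.4.6, scipy 1.17.1, pandas 2.3.3, statsmodels 0.14.6 and pysam 0.24.0 were used.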

Additional observations from a re-analysis of the deposited data

Results flagged for a closer look

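Shared regions outside the compared chromosomes also lay in dense runs. On unplaced and unlocalised scaffolds there were 42 shared regions, and 26 of them met the same rule. Scaffold GL000220.1 held 11 clustered regions over 88.05 kb of its 161.8 kb, and scaffold KI270733.1 held 15 over 89.3 kb of its 179.8 kb. The rule admits no run under 3 regions, and no control ChIP was compared. WGATAR was in 2 windows on each scaffold. Near-identical windows were sought only among clusters on the compared chromosomes. Whether these scaffolds hold copies of the ribosomal RNA clusters was therefore not tested.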

How the results depend on the processing

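No paired analysis was possible because the only test compares regions of the same ChIP replicates and the input samples, which carry the same numbers, entered no comparison. The numbers of clusters, of regions in them and of genes near them follow the rule. They were 142, 487 and 102 with replicates matched within 50 bp, 104, 358 and 76 with runs of at most 25 kb, 506, 1809 and 677 with runs of at most 100 kb, and 40, 199 and 36 with runs of 4 or more. With 1 replicate left out they ranged from 571 to 1143, from 2071 to 4202 and from 565 to 1161. The 15 developmental transcription factor genes became 9 with matching within 50 bp, 28 with runs of at most 100 kb, 5 with runs of 4 or more and 49 to 84 with 1 replicate left out. A TSS limit of 10 kb gave 94 genes and 100 kb gave 349. The odds ratio of WGATAR stayed below 1 in each alternative tried. It passed the threshold in Fisher's exact tests with matching within 250 bp (0.740, adjusted p 5.9e-04), runs of at most 100 kb (0.796, adjusted p 0.0108), runs of 4 or more (0.513, adjusted p 4.4e-04), regions outside promoters (0.753, adjusted p 0.0198) and 1 replicate alone (0.689 to 0.770). It did not pass with matching within 50 bp (0.8545, adjusted p 0.4585), runs of at most 25 kb (0.695, adjusted p 0.0850), 100 bp windows (0.820, adjusted p 0.0973), 1 region per cluster (adjusted p 0.498), pooled over GC quintiles (Mantel-Haenszel adjusted p 0.110) or without clusters of near-identical windows (0.344). Promoter odds ratios were 0.767 to 0.790 with 1 replicate alone, intron 0.926 to 1.01 and intergenic 1.04 to 1.15, of which the promoter ratio without replicate 2 (adjusted p 0.0187) and the intergenic ratio without replicate 1 (adjusted p 0.0156) passed Fisher's exact test. The intergenic ratio was 1.23 and past the threshold with promoters of 5 kb. No ratio that turned passed the threshold before or after. These were introns at 50 bp matching (1.03) and without replicate 2 (1.01), exons with runs of at most 100 kb (1.02), AGATAA (1.00), GGCGCC (0.217) and CACCTG (0.988) with 1 region per cluster, the AP-1 site in 100 bp windows (1.16) and GCCNNNGGC without clusters of near-identical windows (0.945). The number of features past the threshold, 1 as reported, was 0 by Fisher's exact test in 100 bp windows, with 1 region per cluster (2 at an unadjusted p under 0.05) and without clusters of near-identical windows (2 unadjusted). The cause of these changes was not tested. Without heights or read counts, weak and strong peaks could not be told apart.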
